A study of Mus musculus with 24 samples.

Results

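The platelet genes described here are Ppbp, Pf4, Gp9, Gp1bb, Gp5 and Itga2b, measured in RNA from the right ventricle of mice. They were picked by gene name: 8 of the 55681 probes that are not controls carry 1 of these 6 names, 3 of them for Gp1bb and 1 for each other gene. The names were chosen with the values on these arrays known, so the members' own levels and differences are given as a description without a test.

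The study compared sham-operated mice with mice whose right ventricle was overloaded in pressure and volume by surgery, called PSPI in the labels. There were 10 sham arrays, 5 of PSPI month 1, 5 of PSPI month 2 and 4 of PSPI month 3, and every sample carries the strain label M/FVB/10-12. The month of the shams is not in their titles, and all 10 served as the control of every month, although the design text speaks of 4 to 5 control ventricles. Every difference from sham is thus a difference from this pooled set. Whether the arrays of a group stem from different animals is not stated, and the p-values therefore reflect array-to-array spread that could be purely technical. All 10 ventricular cardiomyocyte markers examined, Myh7 among them, passed the filter on low signals.

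Platelets are cell fragments without a nucleus that carry RNA received from the megakaryocyte that shed them. Ppbp and Pf4 are chemokines stored in platelet alpha granules. Gp9, Gp1bb and Gp5 are subunits of the receptor for von Willebrand factor, and Itga2b is the alpha subunit of the platelet fibrinogen receptor, whose beta subunit is Itgb3. In ventricle RNA such transcripts can come from blood left in the vessels or from platelets held in the tissue, and fewer platelets and less RNA per platelet cannot be told apart.

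Levels are log2 processed signal minus the array's 75th percentile, so that 0 is the level of a bright probe and a difference of 1 is a 2-fold difference. Detection means that the scanner software called the probe well above background. Between 36.1% and 56.1% of probes were detected per array, and the number of arrays limits the precision. The arrays lay on 3 slides, with 7 shams and 1 month 1 array on slide 1, 7 month 1 and month 2 arrays and 1 month 3 array on slide 2, and 3 shams, 1 array each of months 1 and 2 and 3 arrays of month 3 on slide 3. Over the 500 most variable probes, 8 pairs of arrays of the same group lay closer than 0.2 (median absolute log2 difference), 6 of them on different slides, while the next pair lay at 0.252. Shams 3, 4 and 10 formed 1 such set, and the pairs Sham 1 and 5, Sham 7 and 9, month 1 arrays 1 and 5, month 2 arrays 1 and 5, and month 3 arrays 2 and 3 the others. Averaging them left 17 samples (6, 4, 4 and 3), and results are given with and without that step where it matters.

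The promoters of 4 members are shown first, as background. No link between their motifs and the levels on these arrays was tested. Each is the 250 bases before the RefSeq start on GRCm38.p6, read on the gene's strand. Capitals mark GATAA, a form of the site bound by GATA factors, and GGAAG, a core bound by ETS factors, on either strand (TTATC and CTTCC on the other strand). Other forms of these sites were not searched. GATA1 and the ETS factor FLI1 are regulators of megakaryocyte genes.
Ppbp (chr5:90768268-90768517, plus strand): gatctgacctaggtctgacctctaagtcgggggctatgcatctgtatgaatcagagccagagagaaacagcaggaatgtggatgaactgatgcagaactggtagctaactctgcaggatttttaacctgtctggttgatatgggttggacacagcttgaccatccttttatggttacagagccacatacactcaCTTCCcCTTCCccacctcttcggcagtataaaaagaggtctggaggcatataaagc
Pf4 (chr5:90772185-90772434, plus strand): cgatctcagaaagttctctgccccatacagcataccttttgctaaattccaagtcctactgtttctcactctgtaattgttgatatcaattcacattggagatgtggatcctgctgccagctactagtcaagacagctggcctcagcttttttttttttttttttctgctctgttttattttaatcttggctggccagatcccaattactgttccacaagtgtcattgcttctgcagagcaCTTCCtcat
Gp9 (chr6:87777820-87778069, plus strand): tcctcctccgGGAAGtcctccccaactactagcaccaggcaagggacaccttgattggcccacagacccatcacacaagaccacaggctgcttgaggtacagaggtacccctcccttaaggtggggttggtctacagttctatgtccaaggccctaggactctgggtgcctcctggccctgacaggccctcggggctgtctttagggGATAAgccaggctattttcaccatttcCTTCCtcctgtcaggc
Gp5 (chr16:30310782-30311031, minus strand): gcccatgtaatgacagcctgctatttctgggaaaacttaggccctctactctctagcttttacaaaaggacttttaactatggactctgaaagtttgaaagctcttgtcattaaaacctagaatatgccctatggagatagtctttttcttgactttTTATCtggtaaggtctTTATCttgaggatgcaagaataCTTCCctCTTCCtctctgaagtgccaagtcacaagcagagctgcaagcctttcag

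All 6 members' windows held GGAAG, as did 64.1% of the 32851 RefSeq promoters searched over the same 250 bases. GATAA was found in 2 of the 6, Gp9 with 1 match and Gp5 with 2, against 22.6% of all promoters. Itga2b held 4 matches to GGAAG and Gp1bb 2. Both motifs together occurred in the same 2 members and in 13.2% of all promoters. A match is a description of letters, and its absence says only that these letters are not in this window.

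Ppbp, the platelet basic protein chemokine, had the widest range of the members. Its probe (mm9 chr5:91198970-91199029) was detected on all 24 arrays and ran from -4.26 to 1.17, a 43.1-fold range. In the shams its level ran from -3.25 in Sham 8 to 0.47 in Sham 2 with a median of -1.90. Month 1 arrays 1 to 5 read -0.00, -2.92, 1.17, -1.37 and -0.10. Month 2 arrays 1 to 5 read 0.78, -1.29, 0.11, -0.60 and 0.53, and month 3 arrays 1 to 4 read -1.56, -4.26, -4.10 and -3.46. Every month 3 array lay below every month 2 array, and 3 of the 4 lay below every sham, while the month 1 arrays spanned most of the sham range and beyond. Group means were -1.71 ± 1.09 in sham (SD, n = 10), -0.65 ± 1.56 in month 1 (n = 5), -0.10 ± 0.85 in month 2 (n = 5) and -3.35 ± 1.24 in month 3 (n = 4).

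Pf4, platelet factor 4, lies next to Ppbp on chromosome 5, with 3245 bases between the 2 probes (Pf4 at mm9 chr5:91202275-91202334). It was detected on all 24 arrays, but its range was only 3.09-fold, from 0.29 to 1.92. The array with the least Pf4 still had 32.4% of the signal of the array with the most, against 2.32% for Ppbp. Sham levels ran from 0.29 to 1.44 with a median of 0.71. Month 1 arrays 1 to 5 read 1.04, 0.59, 1.92, 0.61 and 1.18, month 2 arrays 1 to 5 read 1.58, 0.52, 1.05, 0.77 and 1.64, and month 3 arrays 1 to 4 read 1.05, 0.33, 0.39 and 0.45. The groups overlapped, with the same arrays at the top (month 1 array 3, month 2 arrays 1 and 5, Sham 2) as for Ppbp. Pf4 transcripts are also known from resident tissue macrophages: over the 24 arrays Pf4 had an r of 0.314 with the mean of 17 macrophage and monocyte markers, and the 3-gene mean of Ppbp, Pf4 and Gp9 one of 0.112. Of those 17 markers 8 rose over all months, where 10.9% of all genes rose, and their summed level (log2 of the summed signals) ran from 3.85 to 4.22 in sham, 4.15 to 4.37 in month 1, 4.22 to 4.58 in month 2 and 4.46 to 4.73 in month 3, with Cd163 detected on no array. The part of macrophage RNA in the Pf4 signal was not tested.

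Gp9, the glycoprotein IX subunit of the von Willebrand factor receptor, followed Ppbp closely. Its probe (mm9 chr6:87729650-87729709) was detected on all 24 arrays with a 29.8-fold range. Sham levels ran from -5.05 in Sham 8 to -1.59 in Sham 2 with a median of -3.81. Month 1 arrays 1 to 5 read -1.90, -4.84, -0.18, -2.64 and -2.01. Month 2 arrays 1 to 5 read -0.34, -2.69, -1.06, -1.79 and -0.91, and month 3 arrays 1 to 4 read -2.72, -5.08, -4.78 and -4.85. As with Ppbp, no month 3 array reached the lowest month 2 array, although month 3 array 1 came within 0.1 of it. Group means were -3.57 ± 1.07 in sham (SD, n = 10), -2.31 ± 1.68 in month 1 (n = 5), -1.36 ± 0.91 in month 2 (n = 5) and -4.36 ± 1.10 in month 3 (n = 4).

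**Figure D1:**
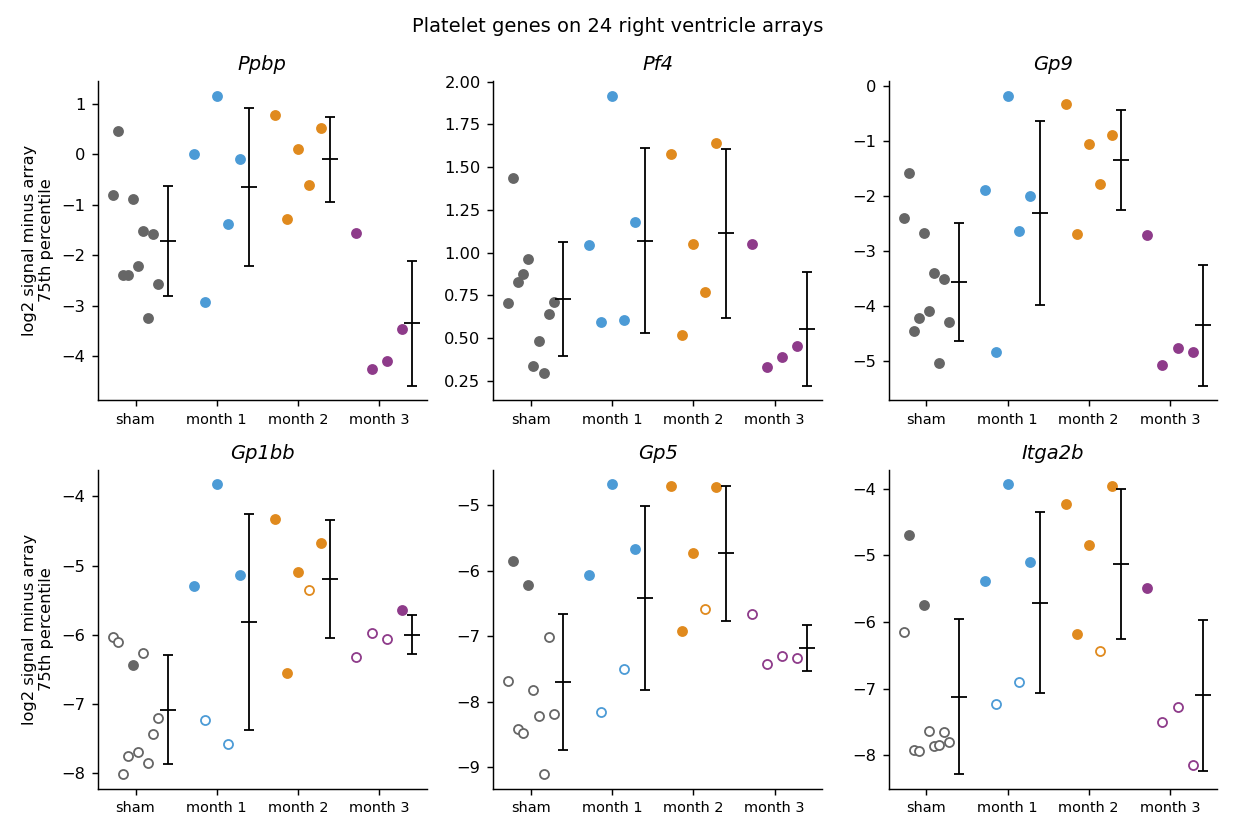
Log2 signal minus the array's 75th percentile (y axis) of the 6 platelet genes by group (x axis). Each point is 1 array, filled where the probe was well above background and open where it was not, and the bar beside each group gives its mean ± SD. For Ppbp and Gp9 all 4 month 3 arrays lie below all 5 month 2 arrays.

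Gp1bb, Gp5 and Itga2b were dim and failed the filter on low signals, being detected on all arrays of no group. Gp1bb was detected by 1 of its 3 probes only, on 9 of 24 arrays: 1 of 10 shams, 3 of 5 in month 1, 4 of 5 in month 2 and 1 of 4 in month 3. That probe (mm9 chr16:18621107-18621166, minus strand) is shown because the other 2 probes, at chr16:18621535-18621594 and chr16:18621717-18621776, were detected on no array; the Itga2b probe, at chr11:102319453-102319661 on the minus strand, is shown beside it because its 60 bases are spread over a longer stretch of genome.
Gp1bb probe: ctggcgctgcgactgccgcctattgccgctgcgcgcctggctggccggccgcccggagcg
Itga2b probe: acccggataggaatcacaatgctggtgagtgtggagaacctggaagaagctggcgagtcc

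Gp1bb, the beta subunit of glycoprotein Ib, ran from -8.01 to -6.03 in the shams with a median of -7.32. Month 1 arrays 1 to 5 read -5.29, -7.23, -3.83, -7.57 and -5.14, month 2 arrays 1 to 5 read -4.32, -6.55, -5.09, -5.36 and -4.67, and month 3 arrays 1 to 4 read -6.31, -5.97, -6.06 and -5.64. Of the 5 month 2 arrays, 4 lay above every sham. On month 3 arrays 2 and 3 the lowest level of any probe well above background was -5.46 and -5.06, higher than the Gp1bb level itself, so the month 3 values are near background.

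Gp5, glycoprotein V (mm9 chr16:30308347-30308406, minus strand), was detected on 2 of 10 shams, 3 of 5 month 1, 4 of 5 month 2 and 0 of 4 month 3 arrays. Its sham levels ran from -9.11 to -5.85 with a median of -8.01. Month 2 arrays 1 to 5 read -4.71, -6.92, -5.73, -6.59 and -4.72, and month 3 arrays 1 to 4 read -6.66, -7.43, -7.31 and -7.33. With month 3 values raised to the lowest level measurable on their arrays, the month 2 mean was 1.17-fold higher. That is no strict lower bound, because month 2 array 4, at -6.59, was not well above background either. The measured means were -5.73 ± 1.03 (SD, n = 5) in month 2 and -7.18 ± 0.35 (n = 4) in month 3.

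Itga2b, the alpha subunit of the platelet fibrinogen receptor, was detected on 2 of 10 shams, 3 of 5 month 1, 4 of 5 month 2 and 1 of 4 month 3 arrays. Its sham levels ran from -7.94 to -4.69 with a median of -7.73. Month 1 arrays 1 to 5 read -5.39, -7.23, -3.93, -6.90 and -5.09, month 2 arrays 1 to 5 read -4.23, -6.19, -4.84, -6.43 and -3.96, and month 3 arrays 1 to 4 read -5.49, -7.50, -7.27 and -8.15. The 2 shams in which it was detected, Sham 2 and Sham 5, are among the 3 shams with the most Ppbp.

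The members rose and fell on the same arrays. Over 24 arrays Ppbp and Gp9 had a Pearson r of 0.967 and a Spearman rho of 0.984, and r was 0.978 without the 2 arrays farthest from the median of Ppbp and 0.982 after group means were taken out. Within slides 1, 2 and 3 (8 arrays each) that r was 0.993, 0.992 and 0.975. Ppbp had an r of 0.846 with Pf4, 0.869 with Itga2b, 0.802 with Gp5 and 0.631 with Gp1bb, the lowest of the 15 pairs. These points share the scaling of each array, and for the dim members many values lie near background.

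**Figure D2:**
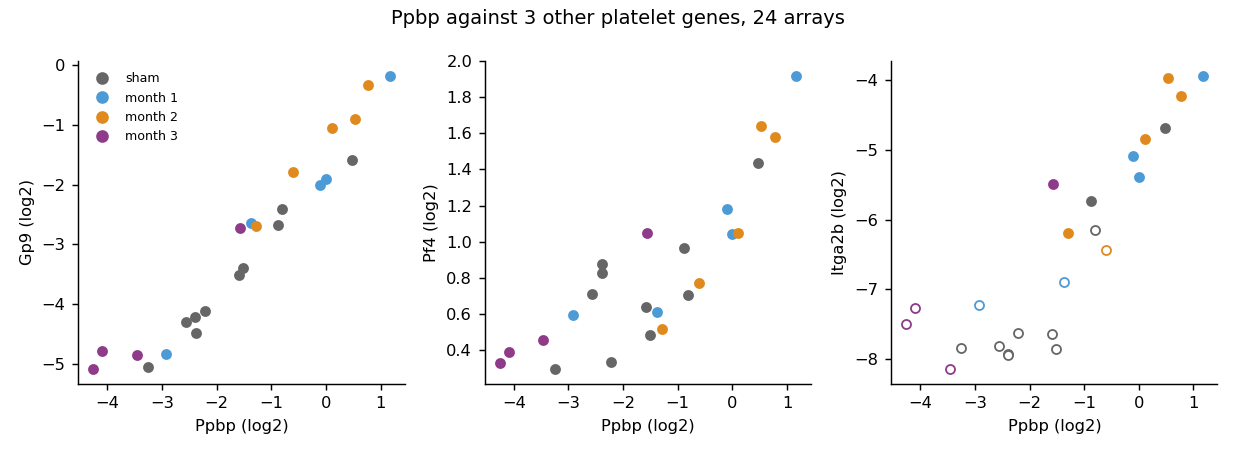
Log2 level of Ppbp (x axes) against Gp9, Pf4 and Itga2b (y axes), 1 point per array, coloured by group; open points were not well above background. Gp9 follows Ppbp with an r of 0.967, Pf4 with an r of 0.846 over a narrower range, and Itga2b with an r of 0.869, its open points lying along the bottom.

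Ordered by the mean of Ppbp, Pf4 and Gp9, each centred on its own mean over the 24 arrays, the arrays mixed the groups. Month 1 array 3 was highest at 2.15, followed by month 2 array 1 at 1.86, month 2 array 5 at 1.61 and Sham 2 at 1.29. Month 3 array 2 was lowest at -1.82, followed by month 3 array 3 at -1.64, Sham 8 at -1.48 and month 3 array 4 at -1.43. The highest and the lowest sham thus lay near the 2 ends of the whole order. Of the close arrays on different slides, Sham 1 and 5 read 0.35 and 0.32, Sham 7 and 9 read -0.29 and -0.30, and month 1 arrays 1 and 5 read 0.90 and 0.87. Month 2 arrays 1 and 5, at 1.86 and 1.61, and Sham 4 and 10, at -0.72 and -0.87, lay farther apart.

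**Figure D3:**
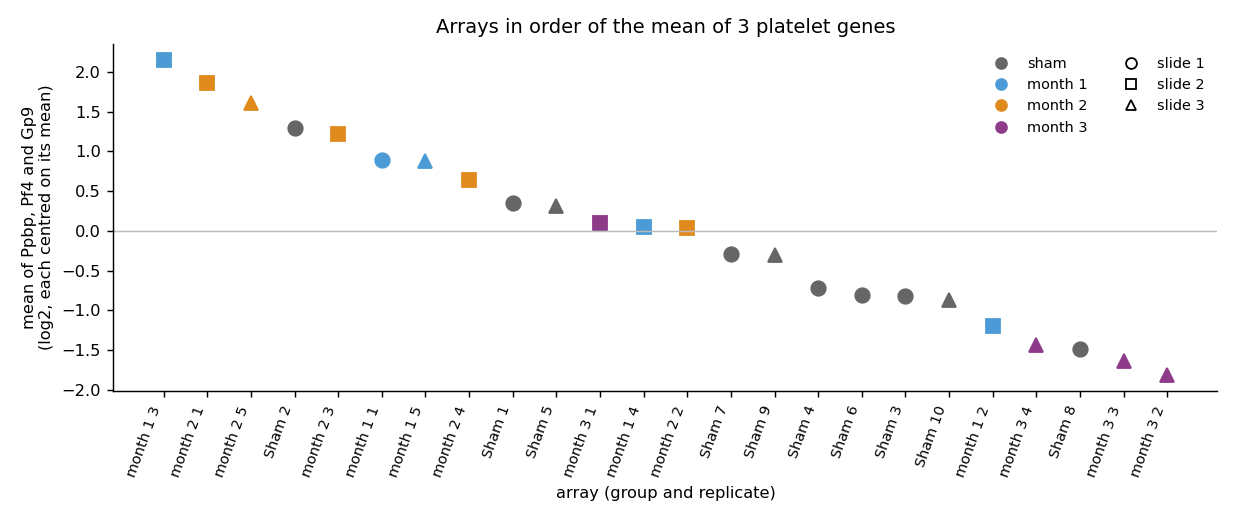
The 24 arrays (x axis) in order of the mean log2 level of Ppbp, Pf4 and Gp9, each centred on its own mean (y axis); colour gives the group and shape the slide. Shams lie between 1.29 and -1.48, and 3 of the 4 month 3 arrays are among the 4 lowest.

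Set against sham, the members were higher in months 1 and 2 by value and split in month 3. In month 1 the log2 differences were 1.07 ± 0.61 (SE) for Ppbp, 0.34 ± 0.22 for Pf4 and 1.26 ± 0.61 for Gp9, with the 5 arrays spread over 4.09 in Ppbp. In month 2 they were 1.62 ± 0.61 for Ppbp, 0.38 ± 0.22 for Pf4 and 2.22 ± 0.61 for Gp9, and the dim members read 1.88 ± 0.50 for Gp1bb, 1.97 ± 0.55 for Gp5 and 1.99 ± 0.63 for Itga2b. Those 3 rest on shams mostly not above background, and in the deposited table they were 0.78, 0.80 and 0.84. All 5 month 2 arrays were above the sham mean in Ppbp, Gp9, Gp1bb, Gp5 and Itga2b, and 4 of 5 in Pf4. In month 3 the differences from sham were -1.63 ± 0.66 for Ppbp, -0.17 ± 0.24 for Pf4 and -0.78 ± 0.66 for Gp9, but 1.08 ± 0.54 for Gp1bb, 0.52 ± 0.60 for Gp5 and 0.02 ± 0.68 for Itga2b, the last 3 resting on levels at or near background. Over all months, taken as the mean of the 3 month means minus sham, the differences were 0.35 ± 0.46 for Ppbp, 0.18 ± 0.17 for Pf4 and 0.90 ± 0.47 for Gp9. That of Ppbp was 0.15 without month 3 array 1.

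For Ppbp, Pf4 and Gp9 the differences between month 3 and month 2 were larger than those of any month from sham. The log2 difference, month 3 minus month 2, was -3.25 ± 0.74 (SE) for Ppbp, a level 9.51-fold lower, and -3.00 ± 0.75 for Gp9, 8.00-fold lower. Pf4 differed by -0.56 ± 0.27. For the dim members the measured values give no usable size in month 3: Gp5 was detected on 0 of 4 arrays there and Itga2b and Gp1bb on 1 of 4, and the difference was -1.97 for Itga2b, -1.45 for Gp5 and -0.80 for Gp1bb against -0.31, -0.12 and 0.06 in the deposited table. Of the 12581 genes with a value on every array, 6.12% had all month 3 arrays below all month 2 arrays, as Ppbp and Gp9 did, and 6.28% had them all above. In month 2, no member had all 5 arrays above all shams, which 1.49% of genes had, or all below, which 1.87% had. On slide 3 alone, Ppbp read -3.94 ± 0.42 in month 3 (SD, n = 3), -1.68 ± 0.85 in sham (n = 3), -0.10 on the month 1 array and 0.53 on the month 2 array. On slide 2 the only month 3 array read -1.56, below all 4 month 2 arrays there. Without month 3 array 1 the difference of Ppbp was -3.84 and that of Gp9 -3.54, and with close arrays averaged they were -2.79 and -2.63.

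Of the 3 members tested with all other genes in limma, 0 were called over all months, where 24.5% of 12593 genes were called (10.9% higher, 13.6% lower), and 0 in month 1, where 0% were. In month 2, 1 was called higher (Gp9), where 14.6% of genes were called (6.42% higher, 8.16% lower), and in month 3 against sham 0 were, where 39.0% were (17.4% higher, 21.5% lower). In month 3 against month 2, 2 were called lower (Ppbp and Gp9), where 18.9% were (9.20% higher, 9.69% lower). The members were chosen with these contrasts known, and nothing is read from these counts.

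Genes that were no members were tested in the same fit. Over the 24 arrays, 15 of 12590 other genes had an r of at least 0.8 with the 3-gene mean and 7 an r of at least 0.9, while the median r was 0.02. The 8 of plain symbol with the highest r were Clec1b (0.974), the platelet receptor for podoplanin, Tmem40 (0.957), Treml1 (0.943), a receptor stored in alpha granules, Rgs18 (0.939), a regulator of G protein signalling, Plek (0.938), a substrate of protein kinase C, Sh3bgrl2 (0.933), P2ry12 (0.895), the ADP receptor, and Slc2a3 (0.874), a glucose transporter. Within the 10 shams alone the r of Clec1b was 0.943 and that of Plek 0.973. Without the 2 arrays farthest from the median of the 3-gene mean, the r of these 8 genes ran from 0.859 to 0.970, and over the 17 samples left after averaging close arrays from 0.883 to 0.979. These correlations are a description over arrays that share group and scaling.

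**Figure D4:**
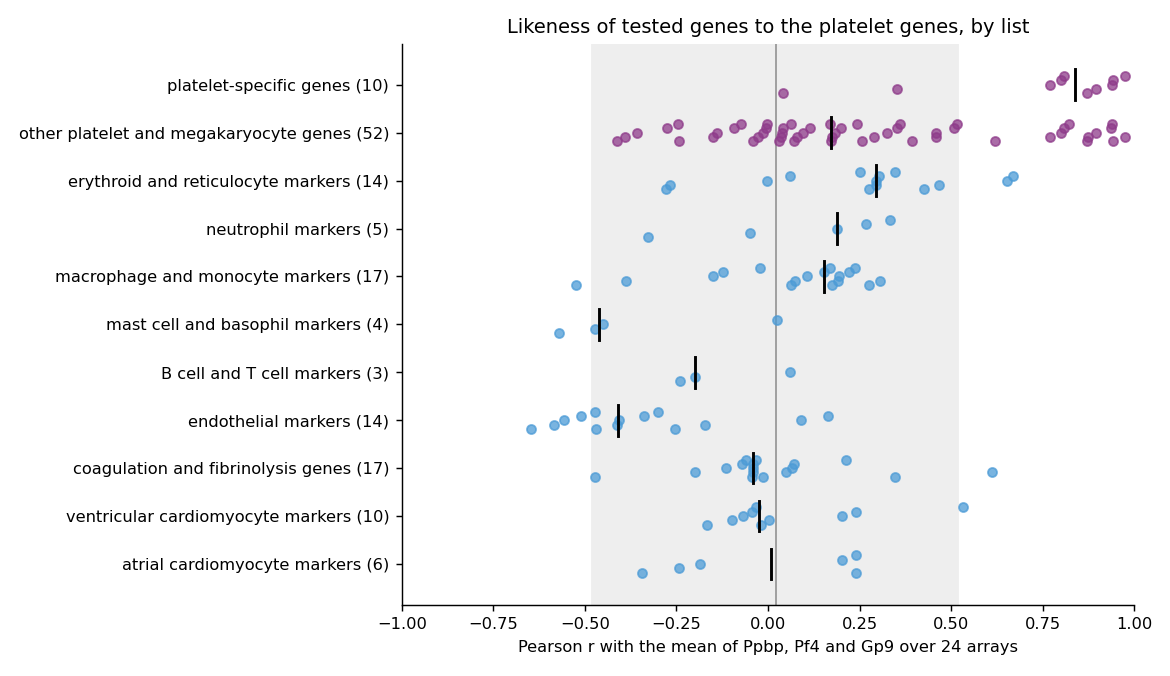
Pearson r over 24 arrays (x axis) of each tested gene with the mean of Ppbp, Pf4 and Gp9, by gene list (y axis, number of genes in brackets); black bars are list medians, and the grey band is the central range of all genes (-0.482 to 0.519) around a median of 0.02. The median was 0.839 for the platelet-specific list and 0.173 for the wider platelet list, and the endothelial list lay at -0.41.

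Of 20 further platelet-specific genes, 10 passed the filter, and 4 of the 10 rose in month 2 against sham (limma, adjusted p under the threshold) and 0 fell, where 6.42% of all genes rose and 8.16% fell. The median difference was 1.09 against -0.02 over all genes. The mean of the 10 genes had an r of 0.953 with the 3-gene mean of the members over the 24 arrays. Their calls are therefore not independent, and the 4 are not separate findings. Itgb3, the partner of Itga2b, rose by 1.47 ± 0.31 on the log2 scale (SE, adjusted p = 0.00615). Nrgn, a calmodulin-binding protein, rose by 1.86 ± 0.47 (adjusted p = 0.0132), Treml1 by 1.74 ± 0.57 (adjusted p = 0.0448) and Gp6, the collagen receptor, by 1.17 ± 0.39 (adjusted p = 0.0493). Gp6 was detected on all 5 month 2 arrays but on only 6 shams, 3 month 1 and 2 month 3 arrays. It passed the filter only through month 2, so its place among the 4 is partly set by the filter. Its call was kept in 1 of 13 alternative settings. Clec1b (1.36 ± 0.53), Alox12, a lipoxygenase (1.02 ± 0.35), Rgs18 (0.97 ± 0.53), P2rx1, an ATP-gated channel (0.81 ± 0.30), P2ry12 (0.61 ± 0.29) and Mmrn1, multimerin (0.11 ± 0.20), had positive differences and did not pass. The call of Itgb3 held whichever array was left out, that of Nrgn was lost without month 2 array 1 (adjusted p = 0.0533), and those of Treml1 and Gp6 were lost in 12 and 17 of the 24 leave-outs. All 4 calls were lost with close arrays averaged. With slide as a fixed block only Itgb3 kept its call, and slide 2 held 4 of the 5 month 2 arrays but no sham.

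Between month 3 and month 2, 3 of the 10 platelet-specific genes fell and 0 rose, where 9.69% of all genes fell and 9.20% rose, with a median of -1.30. This contrast was added after the members' values were seen. The 3 genes that fell, Clec1b, Rgs18 and P2ry12, followed the members over the arrays (r of 0.974, 0.939 and 0.895). Their p-values are thus no independent support for the fall seen in the members. Clec1b read -0.94, -2.98, -2.03, -2.89 and -0.96 on month 2 arrays 1 to 5 and -2.97, -5.01, -5.18 and -4.87 on month 3 arrays 1 to 4. Month 3 array 1 lay inside the month 2 range and the other 3 below it, and Clec1b fell by 2.54 ± 0.65 (adjusted p = 0.00821, detected on 3 of 4 month 3 arrays). Rgs18 fell by 2.51 ± 0.65 (adjusted p = 0.00939) and P2ry12 by 1.62 ± 0.36 (adjusted p = 0.00276), each detected on 2 of 4 month 3 arrays. Under normexp background correction Clec1b fell by 1.58 (adjusted p = 0.0415), while Rgs18 at -1.14 (adjusted p = 0.0937) and P2ry12 at -0.27 (adjusted p = 0.564) did not pass. With close arrays averaged none of the 3 passed (adjusted p = 0.133 for Clec1b, 0.136 for Rgs18 and 0.0754 for P2ry12), and without month 3 array 3 Rgs18 did not (adjusted p = 0.0521).

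Against sham in month 3, P2rx1 rose by 0.89 ± 0.32 (adjusted p = 0.0345), Rgs18 fell by 1.54 ± 0.58 (adjusted p = 0.0384) and P2ry12 fell by 1.01 ± 0.31 (adjusted p = 0.0143). These 3 of 10 stand beside 39.0% of all genes called in that contrast. P2rx1 and Rgs18 each lost the call in 7 of the 24 leave-outs and P2ry12 in 2. All 3 lost it with close arrays averaged, and also with slide as a fixed block. The P2ry12 difference turned positive under normexp correction (0.15) and in the deposited table (0.20). In month 1, 0 of the 10 passed in limma, as for every gene, although 9 of 10 differences were positive with a median of 0.60; 1529 of 12593 genes had an unadjusted p under the threshold.

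**Figure D5:**
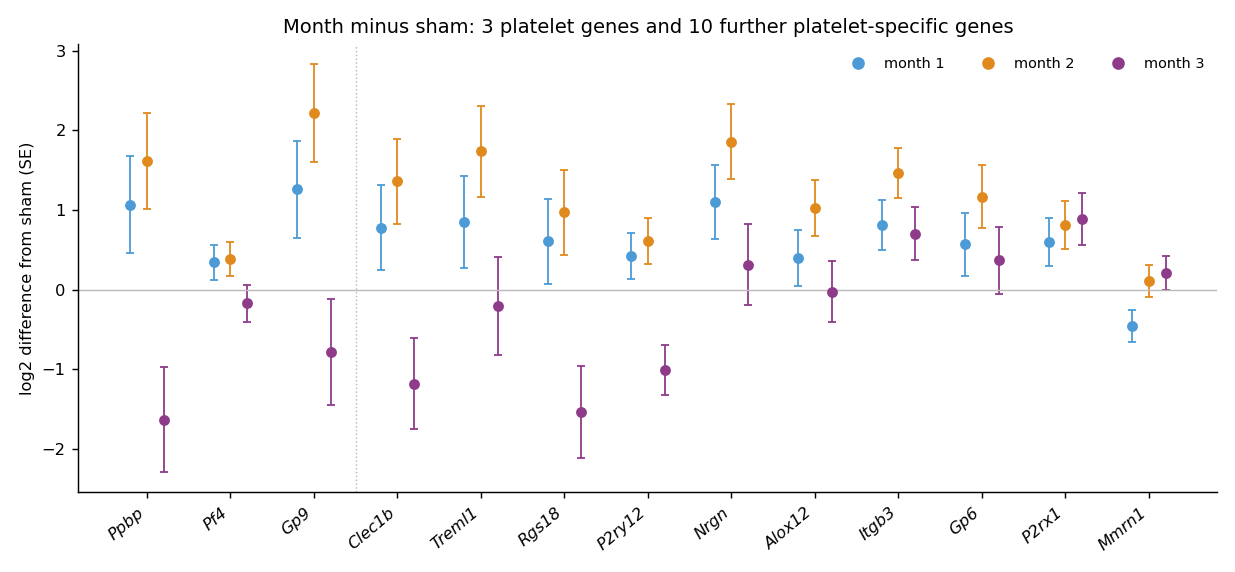
Log2 difference from sham with its SE (y axis) in months 1, 2 and 3 for Ppbp, Pf4 and Gp9 and for 10 further platelet-specific genes (x axis). Month 2 lies above 0 for all 13 genes, and month 3 ranges from -1.63 for Ppbp to 0.89 for P2rx1.

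The wider list of 72 platelet and megakaryocyte genes includes many that other ventricle cells also use, and 52 passed the filter, the 10 platelet-specific genes among them. In month 2, 12 rose and 1 fell, 13 of 52 against 14.6% of all genes, with a median difference of 0.31 against -0.02. Besides the 4 above, these included Slc2a3 (1.08 ± 0.30, adjusted p = 0.0204), F5, coagulation factor V (1.79 ± 0.55, adjusted p = 0.0338), Fermt3, kindlin-3, which activates integrins (1.01 ± 0.27, adjusted p = 0.0181), and Plek (0.97 ± 0.33, adjusted p = 0.0476), while Angpt1, an angiopoietin, fell by 1.61 ± 0.41 (adjusted p = 0.0139). F5 was detected on all 5 month 2 arrays but on only 2 shams, 3 month 1 and 2 month 3 arrays. Like Gp6 it passed the filter only through month 2, so the places of both among the 12 are partly set by the filter. Without month 2 array 1 or month 2 array 5, Slc2a3 and Fermt3 did not pass, and Plek and F5 lost the call in 15 and 7 of the 24 leave-outs. With slide as a fixed block Slc2a3, F5, Fermt3 and Plek lost the call and Angpt1 kept it. The count of 13 was 3 without month 2 array 1, 5 without month 2 array 5, 7 without month 2 array 3, 8 without Sham 3 or Sham 4, and 0 with close arrays averaged.

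In month 3 against sham, 10 of the 52 rose and 4 fell, a share of 26.9% against 39.0% of all genes. The 2 with the smallest p over all months were Serpine2, protease nexin 1, which rose by 0.66 ± 0.15 (adjusted p = 0.00158), and Tgfb1, the growth factor, which rose by 0.54 ± 0.15 (adjusted p = 0.00573), and their r with the members was 0.173 and 0.242. That count of 14 was 7 without month 3 array 3 and 9 without month 3 array 4. In month 3 against month 2, 3 fell (Clec1b, Rgs18 and P2ry12) and 2 rose (Nbeal2 and Vwf, the von Willebrand factor that endothelium also makes, by 0.92 ± 0.28, adjusted p = 0.0226), 9.62% against 18.9% of all genes. That count of 5 was 2 without month 3 array 3, 3 without month 2 array 3 or month 3 array 2, 8 without month 3 array 1, 9 without month 1 array 3 or month 2 array 2, and 11 with the percentile taken over all probes. Over all months 12 rose and 1 fell, 13 of 52 against 24.5% of all genes. Besides Serpine2 and Tgfb1, the smallest p values there were those of Itgb3, which rose by 1.00 ± 0.24 (adjusted p = 0.00494), and Angpt1, which fell by 1.21 ± 0.31 (adjusted p = 0.00801).

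The regulators and partners closest to the members were mostly too dim to test. Gp1ba, the alpha subunit that pairs with Gp1bb, was detected on 7 arrays and had an r of 0.858 with the 3-gene mean, and Nfe2, a megakaryocyte transcription factor, was detected on 6 with an r of 0.816. Gata1 was detected on 4 arrays with an r of 0.681. Fli1 passed the filter with an r of -0.276 and did not pass the test in any month (month 3 minus sham 0.15 ± 0.13). Of 13 neighbours and receptors of the members only Pdpn, podoplanin, the ligand of Clec1b, passed the filter, at 0.53 ± 0.26 in month 2, which did not pass the test; the chemokine neighbours Cxcl2, Cxcl3 and Cxcl15 and the receptor Cxcr2 were detected on no array.

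The other blood and vessel cells that ventricle RNA can hold were followed by marker lists, whose counts stand beside 24.5% of all genes called over all months, 39.0% in month 3 against sham and 18.9% in month 3 against month 2. Of 14 tested erythroid markers 0 were called over all months, and 3, Bpgm and Car2 among them, fell between month 2 and month 3; their mean had an r of 0.478 with the members, and Alas2, the erythroid heme synthesis enzyme, one of 0.467. The summed erythroid level (log2 of the summed signals) ran from 6.48 to 7.36 in sham, 6.50 to 7.32 in month 1, 6.42 to 7.37 in month 2 and 6.81 to 7.28 in month 3, with Epb42, Rhag, Trim10 and Kel detected on no array. Of 5 tested neutrophil markers 4 rose over all months, and their mean had an r of 0.221; S100a8, a calcium-binding protein of neutrophils, rose by 2.88 in month 2, where the mean of Ppbp was highest, and by 2.86 in month 3, where it was lowest. In month 2, 3 of the 5 rose and 0 fell, where 6.42% of all genes rose and 8.16% fell, with a median difference of 1.80. Their summed level, in which bright markers weigh most, ran from 2.37 to 3.22 in sham, 2.41 to 3.25 in month 1, 2.58 to 3.17 in month 2 and 3.30 to 4.57 in month 3. Ngp, Mpo, Mmp8, Cxcr2 and Stfa2l1 were detected on no array. Of 14 endothelial markers 6 rose from month 2 to month 3, with a list r of -0.588; their summed level ran from 4.51 to 4.65 in month 2 and 4.88 to 5.46 in month 3, against 4.57 to 4.95 in sham and 4.32 to 4.79 in month 1. Of 4 mast cell and basophil markers 2, Hdc and Tpsb2, rose from month 2 to month 3, with a list r of -0.514. Their summed level ran from -2.05 to -1.42 in sham, -1.88 to -1.46 in month 1, -1.84 to -1.62 in month 2 and -1.14 to -0.58 in month 3, with Tpsab1, Fcer1a, Ms4a2 and Prss34 detected on no array. Of 3 B cell and T cell markers 0 were called in month 3 against month 2 and 1 rose over all months, with a list r of -0.17, and their summed level ran from -2.13 to -0.77 in sham, -1.96 to -1.27 in month 1, -2.12 to -1.19 in month 2 and -2.05 to -0.19 in month 3. After group means were taken out, the list r was 0.40 for erythroid, 0.32 for neutrophil and -0.018 for B cell and T cell markers. For endothelial markers it was then -0.242, and for mast cell and basophil markers -0.163. The part of each in the platelet values was not tested.

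Measures that part these arrays in other ways were set beside the members without a test. Myh7, the slow myosin heavy chain, had an r of 0.0025 with the 3-gene mean, the share of probes detected per array one of -0.027, the atrial light chain Myl7 one of 0.201 and Nppa one of -0.242. After group means were taken out, these were -0.072, -0.016, -0.16 and -0.408. With Pf4 alone, Myl7 had an r of 0.371, and 0.203 after group means. Shams 3, 4 and 10, which carry high Myl7, lay at -0.82, -0.72 and -0.87 on the 3-gene mean, and without them the month 2 difference from sham was 1.30 for Ppbp and 1.89 for Gp9. Without these shams the month 2 calls of Nrgn, Treml1, Gp6, Slc2a3, F5, Plek and Angpt1 were lost. Those of Itgb3 and Fermt3 were kept. Of 6 atrial markers 0 were called in month 3 against sham, where 39.0% of all genes were called. Their median difference from sham was -1.36 (Myl7 -3.63 ± 1.96), and their part in the platelet values was not tested.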

How the data were processed

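Per the labels, 1 single-colour Agilent array was read for each of 24 right ventricle RNA samples. The scanner files the authors deposited hold intensity values on a linear scale, background subtracted and spatially detrended by Agilent Feature Extraction 10.7.3.1, per the file headers and the submitters' processing notes. No scaling between arrays was found in the deposited table of the series, whose values equal the net signal for 62976 of 62976 spots on each array. Control and outlier spots were left out, and each array's 75th percentile, taken over the 16946 probes detected on every array, was subtracted from log2 processed signal. The filter kept 21040 of 55681 probes, those detected throughout 1 group or more, and the brightest of them on average stood for its gene. Symbols came through the gene table of GRCm38.p6, by accession for 26582 probes.

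The 4 groups were fitted together with limma 3.58.1 (lmFit and eBayes), with Benjamini-Hochberg adjustment over 12593 genes and a threshold of 0.05. The fit was tested on simulated data. The members, gene lists and contrasts were chosen with earlier results of these data known, and the contrast of month 3 with month 2 was added after their values were seen. Named genes are the 6 members, up to 4 genes per list with the smallest p over all months, all tested platelet-specific genes, the 8 genes of plain symbol most like the members, and Myh7; genes named outside this rule (among them F5, Fermt3, Nbeal2, Vwf, Fli1 and Gp1ba) were chosen after their values were seen, and a few genes of the lists are not reported here. Replicate numbers were shared between groups by label, but only 9 of 27 same-numbered pairs deviated together with a correlation above 0.1, so no pairing was used.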

Additional observations from a re-analysis of the deposited data

Results flagged for a closer look

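Of 24 groups of member values (6 probes in 4 groups), 2 held an array standing apart from the others of its group by more than Dixon's 95% critical value. Chance alone passes that limit in about 1 in 20 groups, and it served only to pick values for a closer look. The 2 are not independent, as Gp9 and Gp5 had an r of 0.875 over the 24 arrays, and nothing is read from their number. Both were month 3 array 1, which lies on slide 2 while the other 3 lie on slide 3. Its Gp9 level was -2.72, with the nearest month 3 array at -4.78. Its Gp5 level was -6.66, with the nearest at -7.31. Gp5 was well above background on 0 of 4 month 3 arrays, so that flag compares values near background.

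The month 3 and month 2 responses differed in 5 of 52 further platelet and megakaryocyte genes by the limma contrast of month 3 with month 2. That share of 9.62% was below the 18.9% of all genes called in the same contrast. Clec1b differed by -2.54, Rgs18 by -2.51 and P2ry12 by -1.62, and Nbeal2 by 0.41 and Vwf by 0.92. These contrasts share their samples with the sham comparisons, and the first 3 genes were near background on some month 3 arrays. The contrast was added after the members' values were seen, and Clec1b, Rgs18 and P2ry12 followed the members over the arrays. All 5 calls were lost with close arrays averaged, Nbeal2 kept its call in 5 of 14 alternative settings, and Vwf lost it without month 2 array 3, month 3 array 2 or month 3 array 3.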

How the results depend on the processing

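Members, without a test: the sign of the month 2 difference from sham was kept for all 6 under all 38 settings, and that of month 3 minus month 2 for all but Gp1bb, which read 0.06 in the deposited table. Month 3 minus month 2 ran from -4.47 to -2.56 for Ppbp and from -3.99 (slide 3 alone) to -1.998 (deposited table) for Gp9. Over all months, Ppbp turned to -0.12 and Pf4 to -0.03 with the replicate number as a block. P2ry12 in month 3 against sham, called at -1.01, turned to 0.15 with normexp background correction and 0.20 in the deposited table; the cause was not tested.

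Counts of calls are given as all genes, then, where given, the 52 wider platelet genes. For month 3 against month 2 (2379 and 5), the platelet count was 11 with the percentile over all probes or quantile normalization; normexp gave 1333 and 3, the deposited values 1349 and 3, slide as a fixed block 967 and 3, slide 3 alone 223 genes, close arrays averaged 1040 and 0, and probes well above background on all arrays 2 platelet genes. For month 2 against sham (1836 and 13), no filter gave 846 and 8, slide 3 alone 0 and 0, close arrays averaged 7 and 0, and leaving out the 3 shams with high Myl7 715 and 6. For month 3 against sham (4905 and 14), slide 3 alone gave 1676 and 6 and close arrays averaged 2759 and 6. For all months (3087 and 13), slide as a fixed block gave 2030 genes, slide 3 alone 0 and 0, close arrays averaged 794 and 3, and leaving out those shams 1948 and 8. For month 1 (0 and 0), normexp and the deposited table gave 1 gene each, probes above background on all arrays 2, slide 3 alone 2, and leaving out those shams 54 and 2. On slide 3 the lone month 1 and month 2 arrays are assumed to vary like the other groups, and the zeros of small sets of samples say nothing about stability.

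Leaving out 1 array at a time gave 2506 to 3582 genes and 9 to 14 platelet genes over all months, 0 to 42 and 0 in month 1, 698 to 2400 and 3 to 16 in month 2, 3575 to 5482 and 7 to 15 in month 3, and 1446 to 3793 and 2 to 9 in month 3 against month 2. Replicate numbers do not pair the samples: 9 of 27 same-numbered pairs correlated above 0.1, among them all 5 pairs of month 1 with month 2 (0.187 to 0.514), a contrast not made here, but only 2 of the 14 pairs with sham. With the replicate number as a block, 81 genes were called in month 1, 3053 in month 2 and 8 platelet genes in month 3 against month 2, while Nrgn, Treml1, Gp6, Fermt3, F5, Slc2a3 and Plek did not pass in month 2. With slide as a fixed block, the same named genes did not pass in month 2 either. The dim members and P2ry12, Rgs18 and Clec1b on month 3 arrays are limited by signal near background.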
